A study of Saccharomyces cerevisiae with 8 samples.

Results

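The repressor and activator protein Rap1 was mapped by chromatin immunoprecipitation and sequencing (ChIP-seq) in Saccharomyces cerevisiae grown for 16 h, and the regions described here are the Rap1 peaks that were called over input DNA in that culture. The yeast was strain JDY86, a MATa strain in which hht1-hhf1::NatMX4 removed 1 of the native histone H3 and H4 gene pairs and a synthetic [HHTS-HHFS]-URA3 cassette took the place of the other pair, with can1::MFA1pr-HIS3 and the auxotrophic markers ura3Δ0, trp1Δ63, met15Δ0, lys2Δ0, leu2Δ0 and his3Δ200. Bulk cultures in rich medium (YPD) at 30 °C were cross-linked with formaldehyde, and chromatin was recovered with an anti-Rap1 antibody in 2 biological repeats, each with its own input library. All nuclear peaks were kept, which gave 84 peaks in repeat 1 and 480 in repeat 2, together 564 of the 1223 nuclear peaks in the 4 lists of the series. The other 2 lists come from a 14 d culture and are not described.

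Rap1 is a DNA-binding protein with several roles. At promoters it opens chromatin and recruits activators, among them Fhl1 and Ifh1 at ribosomal protein genes and Gcr1 at genes of glycolysis. At chromosome ends it binds the telomeric repeats along their length and recruits the Rif proteins, which limit telomere length, and the Sir proteins, which silence nearby chromatin.

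The strength of a peak is its fold enrichment, which is the ChIP fragment pileup at the summit plus 1, divided by the local background estimated from the input plus 1. The pileup and background were solved from the fold enrichment and p-value of each peak. The lowest background was 0.414 fragments in repeat 1 and 8.87 in repeat 2, and the median core promoter summit held 10 fragments in repeat 1 and 93 in repeat 2. These values rest on an unscaled ChIP pileup, and total read numbers are not known from the peak lists. Because 1 is added to both terms, the largest fold enrichment that a summit could reach was limited in repeat 1 by its low pileups. Values are therefore compared within each repeat and set side by side between repeats. The same limit acts within repeat 1, between summits of low and high pileup. A core peak had its summit more than 20 kb from a chromosome end, and a terminal peak had it within 20 kb. A summit was assigned to every protein-coding gene whose start lay within 500 bp. Gene spans in the annotation were a multiple of 3 bp for 96.4% of genes, so the start is that of the coding region.

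Summits lay near gene starts in both repeats. In repeat 1, 50 of 84 summits (59.5%, exact 95% binomial interval 48.3 to 70.1) lay within 500 bp of a gene start. In repeat 2, 352 of 480 summits (73.3%, 69.1 to 77.2) did so, where such positions make up 42.4% of the nuclear genome. These intervals, and the others given, cover counting error only. Among core peaks the shares were 78.3% (47 of 60) and 78.8% (342 of 434), and among terminal peaks they were 12.5% (3 of 24) and 21.7% (10 of 46). The genes with a summit numbered 63 in repeat 1, which is 1.05% of the 6002 genes, and 473 in repeat 2, which is 7.88%. Start sites of tRNA genes were near 1 summit in repeat 1 and 3 in repeat 2 (0.625%), with 2.24% of the genome lying that close to one.

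Terminal and core peaks differed in strength, and the peaks at chromosome ends led both lists. In repeat 1 the 20 strongest peaks were all terminal, and in repeat 2 terminal peaks made up 7 of the top 10 and 10 of the top 20. The median fold enrichment of terminal peaks was 25.9 in repeat 1 (range 7.07 to 44.2, n = 24) and 14.8 in repeat 2 (3.34 to 76.8, n = 46). The median of core gene-start peaks was 6.28 in repeat 1 (3.45 to 14.1, n = 47) and 7.48 in repeat 2 (1.90 to 59.8, n = 342). Core peaks without a gene start within 500 bp had medians of 6.12 (n = 13) and 6.29 (n = 92). In repeat 1 the added 1 lowered the core values more, as the median pileup was 10 at core gene-start and 75.5 at terminal peaks. Pileup over background without the added 1 had medians of 14.6 and 42.3 there. The core peaks at YIL054W (45.9) and upstream of TYE7 (44.3) exceeded that terminal median. The all-terminal top 20 of repeat 1 therefore depends on the added 1. Peaks of 1 library share their depth and background, so no test was made between classes.

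**Figure D1:**
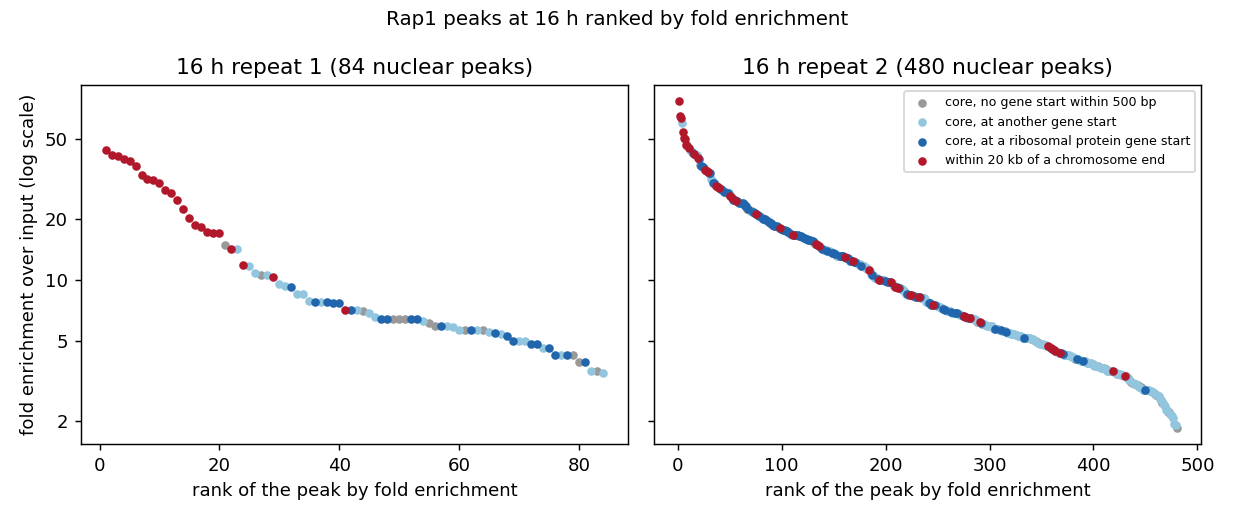
Fold enrichment over input (vertical axis, log scale) of every nuclear Rap1 peak at 16 h against its rank (horizontal axis), with repeat 1 on the left and repeat 2 on the right; each point is 1 peak, coloured by its position. The 20 strongest peaks of repeat 1 are within 20 kb of a chromosome end, and ribosomal protein promoters gather in the upper part of the repeat 2 core peaks.

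The strongest core promoter peak of repeat 2 lay 368 bp upstream of GPD1, at chromosome IV 411243 to 411655 in the R64 genome. GPD1 codes for a glycerol-3-phosphate dehydrogenase that makes glycerol, the osmolyte of yeast. The peak had a fold enrichment of 59.8 in repeat 2 (606 fragments over a background of 9.15) and 5.53 in repeat 1 (22 fragments). The next lay between the divergent genes MAM3, 334 bp from its start, and GPD2, 655 bp from its start, at chromosome XV 216268 to 216674. MAM3 codes for a membrane protein linked to mitochondrial morphology, and GPD2 for the second glycerol-3-phosphate dehydrogenase; this peak had fold enrichments of 45.8 in repeat 2 and 9.57 in repeat 1. Both genes for this enzyme therefore had 1 of the 2 strongest core promoter peaks of repeat 2 upstream of them, although GPD2 lay outside the 500 bp window. GPD2 and the other genes named beyond that window were chosen after their values were seen.

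Several of the strongest core peaks had no ribosomal protein gene start within 500 bp. A summit between the divergent genes SND1, which acts in protein targeting to the endoplasmic reticulum, and CCT6, a subunit of the chaperonin that folds actin and tubulin, had fold enrichments of 43.3 in repeat 2 and 11.7 in repeat 1. The summit in the uncharacterised gene YCR025C had 44.0 and 10.8, and it also lay 590 bp upstream of PMP1, which codes for a small regulator of the plasma membrane proton pump. The peak at MNN4, needed for mannosylphosphate transfer in cell wall glycoproteins, reached 34.8 and 8.50, and that at IRC15, a microtubule-associated protein, 41.6 and 6.28. All these peaks were called in both repeats. The peaks at the uncharacterised genes YHR033W (43.6), YLR406C-A (41.6) and YLR264C-A (36.6) were called in repeat 2 only. The summit in YLR406C-A lay 529 bp upstream of RPL31B, and that of YLR264C-A lay 911 bp downstream of the start of RPS28B.

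In repeat 1 the strongest core promoter peak lay between the uncharacterised genes YIL055C and YIL054W, with a fold enrichment of 14.1 (19 fragments over a background of 0.414) and 26.0 in repeat 2. The genes TEF1 and TEF2 for translation elongation factor 1A were also among the 15 strongest. TEF1 had 10.6 in repeat 1 and 29.1 in repeat 2, and TEF2 had 8.48 and 30.0. HYP2, which codes for the factor eIF5A, had its summit 367 bp upstream and inside the neighbouring gene UTR5, with 7.86 in repeat 1 and 31.8 in repeat 2. ERG5, an enzyme of ergosterol synthesis, had 7.78 and 15.6. The peak at HHO1, the gene for linker histone H1, stood apart from these, with 9.30 in repeat 1 and 4.31 in repeat 2. It was the only 1 of the 59 shared core peaks with a higher fold enrichment in repeat 1. Its summit lay inside the gene in both repeats, 370 bp and 150 bp from the start, and this gap of 220 bp was the largest between the repeats.

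Ribosomal protein genes had the highest share of members with a Rap1 summit among the 20 gene lists in repeat 2. There, 112 of the 137 genes (81.8%, 74.3 to 87.8) had a summit within 500 bp, against 7.88% of all genes. These were 67 of 81 genes of the large subunit and 45 of 56 of the small subunit. In repeat 1 the number was 24 of 137 (17.5%, 11.6 to 24.9), against 1.05% of all genes, with 14 from the large and 10 from the small subunit. The 112 genes of repeat 2 were served by 108 core peaks, which was 31.6% of the core gene-start peaks. In repeat 1 it was 21 of 47 (44.7%).

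Core promoter peaks at ribosomal protein genes had a median fold enrichment of 15.6 in repeat 2 (2.84 to 42.7, n = 108), and those at other genes had 5.76 (1.90 to 59.8, n = 234). In repeat 1 the medians were close, at 5.88 (n = 21) and 6.42 (n = 26). They rested on few fragments, with median pileups of 8 and 10.5. Without the added 1, median pileup over background was 14.5 and 14.9 there. When the 342 core gene-start peaks of repeat 2 were ranked by fold enrichment and taken 50 at a time, ribosomal protein genes were at 25, 33, 22, 17, 5 and 5 of each 50 peaks and at 1 of the last 42. The upper 200 peaks, down to a fold enrichment of 6.47, thus held 97 of the 108. The ranked groups of 16, 16 and 15 peaks in repeat 1 held 6, 7 and 8, so no concentration at the top was seen there.

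Among the members, RPL2B had the strongest peak, with a fold enrichment of 42.7 in repeat 2 (420 fragments) and 9.19 in repeat 1 (12 fragments). Other strong peaks in repeat 2 were those of RPS7A with 36.6, RPS1B with 36.4 and RPS14B with 34.0. Of these 3 only RPS7A had an overlapping peak in repeat 1, at 5.90. RPS1B shares its summit with TEM1, a GTPase of the mitotic exit network, and RPS14B shares its summit with SOP4, an endoplasmic reticulum protein. In repeat 1, RPL2B was followed by RPL35B and RPS19B, both with 7.78, and by RPS4A and the divergent genes RPL13B and RPS16A, with 7.64.

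In repeat 2, 4 summits lay between pairs of ribosomal protein genes. They were those between RPL13A and RPS16B (33.7), RPL13B and RPS16A (30.3), RPL39 and RPS22A (30.3), and RPP2A and RPS15 (9.88). In all, 117 of 352 assigned summits in repeat 2 had 2 or more gene starts within 500 bp, and in 101 of them the starts were on both strands. In repeat 1 it was 13 of 50, all with starts on both strands. The peak alone does not tell which gene of such a pair it serves.

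Most yeast ribosomal proteins are coded by a pair of near-identical genes with separate promoters. Of 59 such pairs, 45 had a summit within 500 bp of both genes in repeat 2, 6 had it at 1 gene and 8 at neither. The fold enrichments of the paired genes differed by a median of 1.40 times, and by more than 2 times in 14 pairs. Among the pairs with a wide gap were RPL2B (42.7) and RPL2A (6.82), and RPL42B (27.9) and RPL42A (7.46). In a further pair, RPS14B (34.0) was above RPS14A (9.73).

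Of the 25 ribosomal protein genes without a summit within 500 bp in repeat 2, 15 had one between 502 and 820 bp upstream. Among these were RPL31B (529 bp, fold enrichment 41.6), RPS25B (723 bp, 37.2), RPL32 (803 bp, 28.2) and RPL17B (537 bp, 26.9). The 16th gene within 1000 bp was RPS28B, whose nearest summit lay downstream of its start. The 9 remaining genes were RPL3, RPL4A, RPL4B, RPL15A, RPL15B, RPP1A, RPP2B, RPS22B and RPS28A, with the nearest summit 1919 bp to 37438 bp from the start. A few ribosomal protein genes, RPL3, RPL4A and RPS28A among them, are known to be bound by the factor Abf1 in place of Rap1. At 1000 bp the share of ribosomal protein genes with a summit was 93.4% in repeat 2, where 12.2% of all genes had one, and 19.7% in repeat 1, where 1.78% had one.

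**Figure D2:**
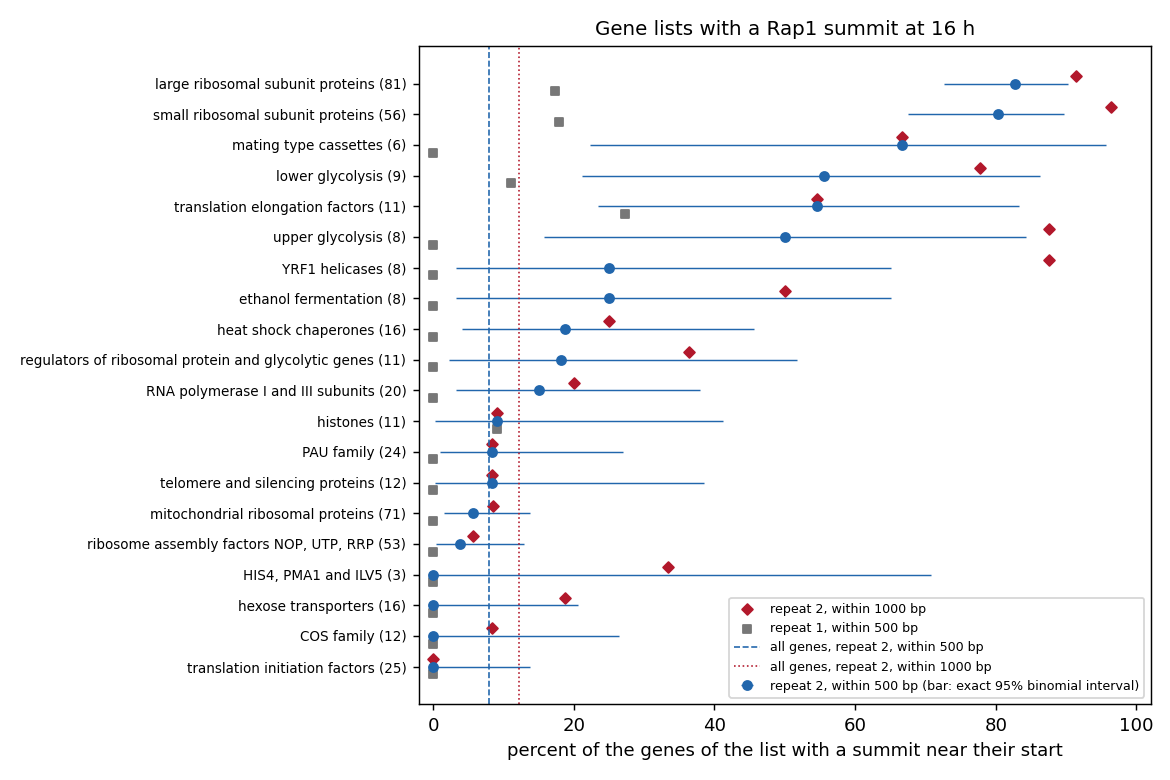
Percent of the genes of each list (size in brackets) with a Rap1 summit near the start, in repeat 2 within 500 bp (circles, with exact 95% binomial intervals) and 1000 bp (diamonds), and in repeat 1 within 500 bp (squares). Dashed and dotted lines mark all genes in repeat 2, at 7.88% and 12.2%; both ribosomal protein lists lie above 80% and the translation initiation factors lie at 0.

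Within the 500 bp window, the position of the summits relative to the gene start was narrower at ribosomal protein genes than at other genes. The window bounds these distances, and leaves out the 15 ribosomal protein genes of repeat 2 with a summit 502 to 820 bp upstream. All 24 genes with a core summit within 500 bp in repeat 1 and all 112 in repeat 2 had it upstream of the start (a shared summit counts once for each gene), at a median of 337 bp and 310.5 bp. The share between 200 and 450 bp upstream was 87.5% (21 of 24) and 88.4% (99 of 112). At other genes the medians were 321 bp and 257 bp upstream, and 52.8% (19 of 36) and 50.0% (175 of 350) lay in that interval. A summit downstream of the start was found at 11.1% of the other genes in repeat 1 and at 14.6% in repeat 2.

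**Figure D3:**
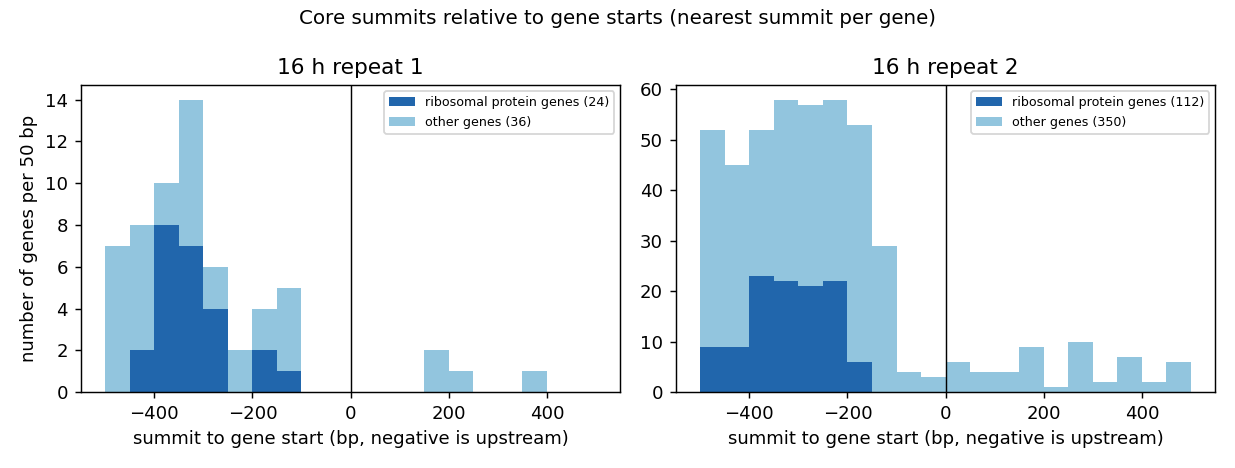
Number of genes (vertical axis) by the distance of the nearest core summit from the gene start in steps of 50 bp (horizontal axis, negative upstream), for ribosomal protein genes (dark) stacked with other genes (light). The 24 and 112 ribosomal protein genes shown have their summit upstream of the start, and other genes extend to the downstream side.

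Genes of glycolysis, the pathway from glucose to pyruvate, had summits within 500 bp of lower fold enrichment than the ribosomal protein genes in repeat 2. The medians were 5.73 over 4 genes of the upper and 3.65 over 5 of the lower part of the pathway, against 15.7 over 112. Several glycolytic summits lay more than 500 bp upstream and do not enter these medians. Of the 17 glycolytic genes, 9 had a summit within 500 bp in repeat 2 (52.9%) and 14 within 1000 bp (82.4%, against 12.2% of all genes). In repeat 1 only TDH3 had one, with a fold enrichment of 5.66 there and 12.7 in repeat 2. TDH3 codes for the main glyceraldehyde-3-phosphate dehydrogenase. The strongest glycolytic promoter in repeat 2 was that of the enolase gene ENO1, with 27.2 at 468 bp upstream, whereas the other enolase gene ENO2 had 3.65.

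Phosphoglycerate mutase GPM1 had 2.84 and phosphoglycerate kinase PGK1 had 2.77 in repeat 2, and TDH1 and TDH2, the other glyceraldehyde-3-phosphate dehydrogenase genes, had no summit within 1000 bp. In upper glycolysis PGI1, which isomerises glucose-6-phosphate, had 7.30 and glucokinase GLK1 had 7.27. Triosephosphate isomerase TPI1 had 4.19 and aldolase FBA1 had 3.85. The pyruvate kinase gene CDC19 had a summit 654 bp upstream (8.37), its isoenzyme PYK2 813 bp upstream (18.2), hexokinase HXK1 556 bp upstream (6.63) and the phosphofructokinase subunits PFK2 575 bp (6.20) and PFK1 893 bp upstream (3.53).

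In ethanol fermentation, 2 of 8 genes had a summit within 500 bp in repeat 2 (25.0%, against 7.88% of all genes) and 4 within 1000 bp (50.0%, against 12.2%). These were ADH3 (3.84), PDC6 (3.55) and, further upstream, ADH1 at 665 bp (20.2) and PDC1 at 632 bp (10.2), the main alcohol dehydrogenase and pyruvate decarboxylase. The ADH1 peak was also called in repeat 1, at 706 bp upstream with a fold enrichment of 7.01.

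Translation elongation factors, which act while the ribosome lengthens the peptide, were among the genes with a summit. Of 11 elongation factor genes, 6 had a summit in repeat 2 (54.5%, 23.4 to 83.3, against 7.88% of all genes) and 3 in repeat 1 (27.3%, 6.02 to 61.0, against 1.05%). Beside HYP2, TEF2 and TEF1 these were YEF3 (4.73), HEF3 (4.05) and EFB1 (3.49), which shares its summit with the Hsp70 gene SSA1. Of 25 initiation factor genes none had a summit in either repeat, also at 1000 bp (12.2% of all genes in repeat 2), which at 500 bp allows a share of up to 13.7% by the exact interval.

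Other classes that make or assemble ribosomes had shares whose intervals included that of all genes in repeat 2 (7.88%). Among 71 mitochondrial ribosomal protein genes, 4 had a summit in repeat 2 (5.63%, 1.56 to 13.8) and none in repeat 1. These were YML6 (17.6), MRPL15 (4.76), RSM7 (3.97) and MRPL49 (3.75). YML6 shares its summit with RPS17A, a gene of the small subunit of the cytosolic ribosome. Of 53 genes for ribosome assembly factors named NOP, UTP or RRP, UTP4 (6.38) and UTP15 (4.22) had one in repeat 2 (3.77%, 0.460 to 13.0). Of 20 subunits of RNA polymerases I and III, the RNA polymerase I genes RPA43 (3.85), RPA34 (2.82) and RPA14 (2.64) had one in repeat 2 (15%, 3.21 to 37.9).

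The gene for Rap1 itself had a summit 128 bp upstream of its start in repeat 2, with a fold enrichment of 11.3 (160 fragments) and rank 183, and none in repeat 1. Of the other 10 regulators of ribosomal protein and glycolytic genes, GCR1 had one within 500 bp (5.47, in repeat 2). With RAP1 this made 2 of 11 (18.2%, 2.28 to 51.8), against 7.88% of all genes. Within 1000 bp it was 4 of 11 in repeat 2 (36.4%, against 12.2% of all genes), among them SFP1 at 876 bp upstream. TYE7, a helix-loop-helix activator of glycolytic genes, had a strong peak further upstream, 918 bp from the start in repeat 1 (14.9) and 891 bp in repeat 2 (24.3). In repeat 1 this was the strongest core peak of all, at chromosome XV 978801 to 979117. Of 12 telomere and silencing proteins none but RAP1 had a summit in either repeat. In repeat 2 this share was 8.33% (0.211 to 38.5), close to the 7.88% of all genes.

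Of 16 heat shock chaperones, HSP78 (6.67), HSP26 (5.15) and SSA1 (3.49) had a summit in repeat 2 (18.8%, 4.05 to 45.6, against 7.88% of all genes). Within 1000 bp it was 4 of 16 (25.0%, against 12.2% of all genes). Of the hexose transporter genes, none of 16 had one within 500 bp (exact upper limit 20.6%). Within 1000 bp 3 of 16 had one in repeat 2 (18.8%, against 12.2%), with HXT6 at 660 bp and HXT1 at 865 bp upstream. The third, HXT5, had a peak 600 bp upstream in repeat 2 (24.1) and 573 bp upstream in repeat 1 (5.66). Of HIS4, PMA1 and ILV5, classical single targets of Rap1, none had a summit within 500 bp, and PMA1 had one 782 bp upstream in repeat 2 (3.70). Of 11 histone genes in the annotation HHO1 alone had a summit (9.09%), but HHT1, HHF1, HHT2 and HHF2 are deleted or replaced in this strain. Whether their promoters were kept is not given in the sources used here, so their absence from the lists cannot be interpreted.

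At the mating type cassettes, Rap1 is known to activate the alpha genes and to help silence the copy at HML. The divergent alpha promoter had a summit at the reference positions of HML (4.36, 42 fragments) and MAT (4.05, 39 fragments) in repeat 2 only. The summits lay 123 bp and 121 bp from the starts of HMLALPHA2 and MATALPHA2, and 141 bp and 143 bp from those of HMLALPHA1 and MATALPHA1. The reference genome carries alpha sequence at both places, but the strain is MATa and holds the alpha promoter at HML only. The summit placed at MAT therefore does not show binding at MAT in this strain. A further summit of repeat 2 (4.46, 43 fragments) lay 1404 bp downstream of the HMLALPHA1 start, outside the 500 bp window. No summit was near the HMR genes.

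Core peaks without a gene start within 500 bp included strong ones. Of the 13 such peaks among 60 in repeat 1 and 92 among 434 in repeat 2, 12 and 78 had a gene start within 1000 bp. The strongest in repeat 2 lay 727 bp upstream of BDF1, a bromodomain protein that binds acetylated histones, at chromosome XII 921642 to 922542, with a fold enrichment of 46.5 in repeat 2 and 6.36 in repeat 1. That of RPS25B had 37.2 and 6.36, and that upstream of ATG19, a receptor of selective autophagy, had 36.0 and 10.6.

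The weakest peaks included 2 at the ribosomal DNA on chromosome XII, inside the 25S rRNA genes RDN25-1 and RDN25-2. In repeat 1 they had fold enrichments of 3.45 and 3.52 with 43 and 42 fragments over backgrounds of 11.8 and 11.2. In repeat 2 they had 4.13 and 4.09 with 2195 and 2266 fragments, the largest core pileups. TAR1, which lies antisense within the first of these, was assigned by its start and had no separate signal. The other weak peaks of repeat 1 were at YPT31 and FIR1 (3.53), RPL26A (3.93) and SED1 (3.93), with 5 fragments each. In repeat 2 the weakest were 2 peaks near MMO1 (1.84 and 1.93) and those at RTS3 and YGR161W-C (1.90), COR1 and YBL044W (2.06), and MET13 (2.10).

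Chromosome ends held a larger share of the peaks than of the genome. The outer 20 kb of the 16 chromosomes made up 5.30% of the nuclear genome and held 28.6% of the peaks of repeat 1 (19.2 to 39.5) and 9.58% of those of repeat 2 (7.10 to 12.6). A terminal peak was found at 21 of 32 ends in repeat 1 and at 31 in repeat 2, and the right end of chromosome XVI had none in either. Telomeric repeats and the subtelomeric X and Y′ elements are shared between ends. How reads that match several places were treated is not given in the sources used here, so the fold enrichment of 1 end cannot be told apart from that of its near-identical copies.

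Most of the positions fell into groups. The outermost kilobase held 15 summits in repeat 1 and 22 in repeat 2, all between 86 and 200 bp from the end. At right ends this distance is set partly by the peak itself, since the end was taken as that of the furthest gene or peak. No summit lay between 1 and 4 kb, 7 and 14 lay between 4 and 7 kb, and 2 and 9 lay between 10 and 15 kb. The 9 of repeat 2 were spread from 10342 to 14685 bp. They included summits 556 bp upstream of HXK1, 347 bp upstream of PAU18 and at the HML alpha promoter. The 1 remaining summit, in repeat 2, lay 9159 bp from the end, near PAU3 (3.34). In repeat 2 the median fold enrichment was 25.0 in the outermost kilobase, 11.1 at 4 to 7 kb and 8.21 at 10 to 15 kb. The medians in repeat 1 were 20.2, 25.0 and 34.8, the last over 2 peaks. The input background of repeat 2 was also higher at 4 to 7 kb, with a median of 38.2 fragments against 9.03 in the outermost kilobase, and its part in the lower fold enrichment was not tested.

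**Figure D4:**
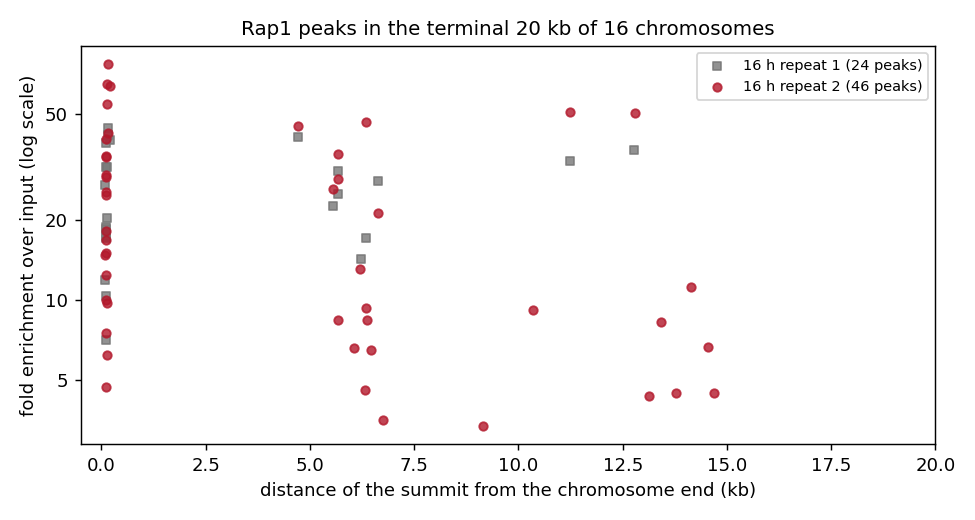
Fold enrichment (vertical axis, log scale) of the terminal Rap1 peaks against the distance of the summit from the chromosome end in kb (horizontal axis), for repeat 1 (squares, 24 peaks) and repeat 2 (circles, 46 peaks). Summits gather in the outermost 200 bp and at 4 to 7 kb, with others spread from 10342 to 14685 bp, 1 at 9159 bp and none between 1 and 4 kb.

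The strongest peak of repeat 2 lay at the right end of chromosome XIV, 146 bp from the end, with a fold enrichment of 76.8 (3964 fragments) against 41.6 in repeat 1 (1076 fragments). YNR077C is the nearest gene. The left end of chromosome IV, nearest to COS7, followed with 64.9 and 31.4. COS7 codes for a membrane protein of the subtelomeric COS family. The left end of chromosome III had 63.7 and 39.7, with the largest pileup in both repeats (5727 and 1447 fragments), and the right end of chromosome XI had 54.2 and 31.5. The genes nearest to both, GEX1 and GEX2, code for glutathione exchangers, and both lay more than 5 kb from the summit.

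Some of the strongest terminal peaks were internal to the end. That near YLL066C on the left arm of chromosome XII, 11232 bp from the end, had 50.6 in repeat 2 and 33.1 in repeat 1. That near YLR462W on the right arm, 12799 bp from the end, had 50.1 and 36.5. On the left arms of chromosomes V, near YEL075C, and VI, near YFL064C, the summits lay 6337 bp and 4708 bp from the end, with 46.7 and 45.0 in repeat 2 and 17.1 and 41.0 in repeat 1. The strongest peak of repeat 1, at the right end of chromosome VIII near YHR219W, had 44.2 there and 42.3 in repeat 2. The left end of chromosome XV, at YOL166W-A, had 26.9 in repeat 1 and 40.2 in repeat 2. In repeat 1 the left end of chromosome IX near YIL177C (38.9; 34.3 in repeat 2) and a peak at YLL066W-B on the left arm of chromosome XII (30.4; 35.2) were also among the top 10.

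Subtelomeric gene families were set against all genes, of which 7.88% had a summit within 500 bp and 12.2% within 1000 bp in repeat 2. The YRF1 genes, which code for helicases within the Y′ elements, had a summit within 500 bp at 2 of 8 members in repeat 2, YRF1-7 (9.26) and YRF1-3 (8.41), and within 1000 bp at 7 of 8. Of 24 PAU genes, which code for seripauperins, 2 had one within 500 bp, PAU18 (4.47) and PAU3 (3.34), which at 8.33% was close to the share of all genes. None of 12 COS genes had one within 500 bp (exact upper limit 26.5%), and 1 of 12 had one within 1000 bp in repeat 2.

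Nearly all peaks of repeat 1 recurred in repeat 2, but not the reverse. Of the 84 peaks of repeat 1, 83 overlapped a peak of repeat 2, whereas 59 of 434 core peaks (13.6%) and 24 of 46 terminal peaks (52.2%) of repeat 2 were called in repeat 1. For the shared peaks the median gap between their summits was 17 bp, with 74 of 83 within 50 bp. The fold enrichment was higher in repeat 2 at 77 of the 83 shared peaks, at 58 of 59 core peaks and 19 of 24 terminal peaks. The median ratio of repeat 2 to repeat 1 was 3.28 in core peaks and 1.48 in terminal peaks. When pileup was divided by background without adding 1, the ratios were 1.36 and 0.903. The rank correlation of fold enrichment across shared peaks was 0.631 (Spearman, n = 83), 0.549 in the 59 core peaks and 0.774 in the 24 terminal peaks. These are descriptions across peaks of 2 libraries, and peaks are not independent replicates.

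**Figure D5:**
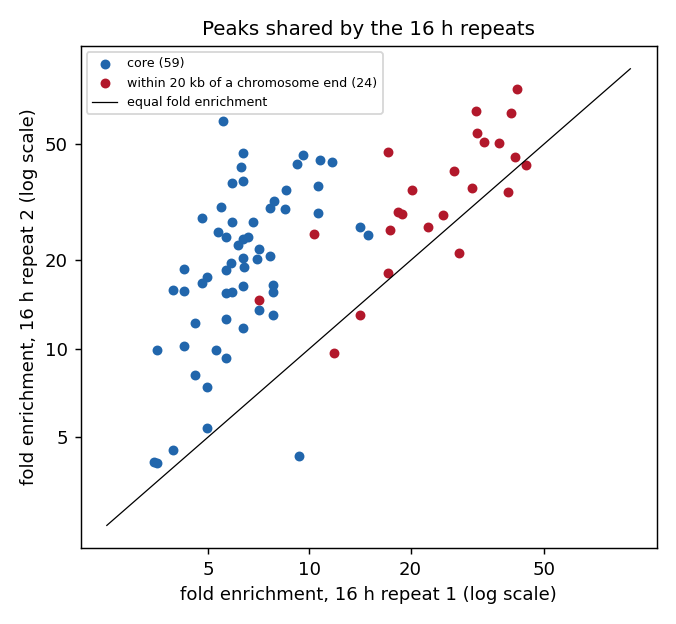
Fold enrichment of the 83 shared peaks in repeat 1 (horizontal axis, log scale) and repeat 2 (vertical axis, log scale), with 1 point per peak and a line at equal values. The core peaks lie above the line at 58 of 59 points and the terminal peaks nearer to it, at 19 of 24.

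The peaks of repeat 2 that were not called in repeat 1 were unevenly spread over classes. Of the repeat 2 peaks with a fold enrichment of at least 20, all 20 terminal peaks were also called in repeat 1 (lower limit 83.2%), whereas 30 of 62 core peaks were (48.4%, 35.5 to 61.4). Among the core peaks within 500 bp of a ribosomal protein gene start it was 8 of 26 (30.8%, 14.3 to 51.8). Among the remaining core peaks it was 22 of 36 (61.1%, 43.5 to 76.9). The latter include peaks with a ribosomal protein gene start further away, such as those upstream of RPL31B (41.6) and RPS25B (37.2), so the 2 classes are not cleanly separated. The terminal peaks had a median pileup of 716 fragments in repeat 2, the ribosomal protein peaks 299 and the remaining core peaks 406.5, so the number of fragments moved with the share called, and its part was not tested.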

How the data were processed

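ChIP-seq and input libraries of 16 h cultures of JDY86 (2 repeats each) were sequenced as paired ends. The authors trimmed reads with Trim Galore, aligned them to R64 with Bowtie2 and called peaks against the matched input with MACS2; versions and settings are not given in the sources used here. The deposited lists hold, per peak, a fold enrichment (ratio), −log10 p- and q-values, a score derived from the −log10 q-value, and a summit (other). Inputs entered only through peak calling.

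Summits were assigned to starts of 6002 nuclear genes of the RefSeq table for R64, with strand from the systematic name and chromosome ends at the furthest gene or peak. Of all peaks, 3 mitochondrial ones in repeat 1 were left out. Pileups were solved from fold enrichment and p-value to a relative tolerance of 0.0001, in Python with SciPy 1.17.1 and pandas 2.3.3, and checked on simulated data. The depth per sample is unknown.

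Genes were named by a rule: those at the 15 strongest core peaks with a gene start, nearest the 10 strongest terminal peaks, the 3 strongest core peaks without a start and the 5 weakest peaks per list, up to 5 members of each gene list, and list members without a summit where 5 or fewer; 1 gene that the rule names is not reported here. The members and lists were chosen with earlier results of these data known. The 1000 bp shares of gene lists and the paralogue comparison were added after seeing the data. Windows, peak threshold, summit definition, terminal zone and repeats were varied. No test between groups was made.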

Additional observations from a re-analysis of the deposited data

How the results depend on the processing

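The values below are means over both repeats, except the rank correlation between them. The number of genes with a summit was 268, and became 94.5 at a window of 250 bp and 420.5 at 1000 bp. The share of summits near a start was 66.4%, and became 24.7% and 87.4%. The share of ribosomal protein genes with a summit was 49.6% and fell to 11.3% at 250 bp. With only the peaks whose −log10 q-value reached 5, the median core fold enrichment went from 6.88 to 7.73. The rank correlation between repeats went from 0.631 to 0.457 with these peaks (63 shared). Over all 83 shared peaks, pileup in place of fold enrichment gave a rank correlation of 0.777. Of 27 alternatives other than leaving out a repeat, 20 stayed within the limit set for them. The limit was 1 SD over the repeats, 1.5 times the count or, for the rank correlation, its approximate 95% interval. That SD is wide, as for the ribosomal protein share (45.4), so staying within it says little.

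Leaving out each repeat in turn gave 63 to 473 genes, 59.5% to 73.3% of summits near a start, 17.5% to 81.8% of ribosomal protein genes, median fold enrichments of 6.28 to 7.48 (core) and 14.8 to 25.9 (terminal), and 21 to 31 ends with a peak. Whether a gene without a peak in repeat 1 lacked fragments or enrichment there was not tested. The planned motif count was not run, since no promoter sequence was at hand. No paired analysis was possible because only 1 culture time was described and no test between groups was made.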
